A study of Homo sapiens with 46 samples.

Results

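The nuclear pore genes encode the nucleoporins, the proteins of the nuclear pore complex, and were taken by symbol from the gene names of the count tables that were built separately for 4 human cell types. The set holds 32 symbols, of which 31 have a row in at least 1 table, since ELYS is another name of AHCTF1. The tables of hPSC, ectoderm and mesoderm hold 31 of the genes, and that of endoderm holds 30, without AHCTF1, among 15396, 18508, 15172 and 13910 genes and loci in that order. All of the genes present passed the filter on low counts in the comparison of cytoplasm and nucleus in each cell type. At the level of isoforms, the tables of hPSC, ectoderm, endoderm and mesoderm list 66, 71, 69 and 68 nucleoporin transcripts of 32819, 54325, 30409 and 36407.

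RNA was sequenced from H1 human pluripotent stem cells (hPSC), an established embryonic stem cell line, and from the ectoderm, endoderm and mesoderm derived from it and collected after 5 days. Endoderm was made with WNT3A and Activin A, mesoderm with VEGF, BMP4 and bFGF, with Activin A at the start only, and ectoderm with the inhibitors A83-01, PNU-74654 and dorsomorphin. Each cell type was lysed with NP-40 and separated over a sucrose cushion into a cytoplasm and a nucleus fraction, and the rest of the nuclear pellet was split with urea and NP-40 into nucleoplasm (the supernatant) and chromatin (the pellet). All lysis buffers held α-amanitin, an inhibitor of RNA polymerase II, so all groups share it. Each of the 16 groups has 3 libraries, except mesoderm nucleoplasm with 1, which gives 46 libraries. The labels do not say whether libraries of a group came from separate cultures, so p-values measure only the spread between these samples, which may be technical.

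Nuclear pores are large channels in the nuclear envelope through which proteins and RNA pass between nucleus and cytoplasm. A few nucleoporins cross the membrane and anchor the pore (NUP210, NDC1 and POM121), others form the inner ring and the outer ring that is called the Y complex, and others line the channel or extend as filaments on the cytoplasmic face and as a basket on the nuclear face. Membrane proteins of the nuclear envelope are made on ribosomes of the endoplasmic reticulum (ER), whose membrane is continuous with the outer nuclear membrane, while soluble nucleoporins are made on free ribosomes.

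The comparisons below turn on the membrane nucleoporins and TPR, the main protein of the basket, so the beginnings of their coding sequences are shown, read from the GENCODE 29 transcripts on build GRCh38. POM121 has a pair of annotated transcripts with different start codons, both on chromosome 7, plus strand. The transcript with the upstream start, ENST00000434423, spans chr7:72925122-72946234, opens at its start codon in exon 1 of 13 and codes for 1249 amino acids. The transcript with the downstream start, ENST00000627934, spans chr7:72890627-72948303, has its start codon at position 72926413 in exon 3 of 14 and codes for 984 amino acids. The shorter coding sequence is the in-frame end of the longer one, which has 795 more bases. The annotated transcripts also differ outside the coding sequence. ENST00000434423 has 0 bases before its start codon and 0 after its stop codon, and ENST00000627934 has 456 and 2069. In the POM121C pair named next these are 0 and 0 for ENST00000607367 and 865 and 2006 for ENST00000615331. POM121C, a near-identical copy on the minus strand of chromosome 7, has the corresponding pair ENST00000607367 (chr7:75418796-75442719) and ENST00000615331 (chr7:75416790-75486271). NUP210 (ENST00000254508, chr3:13316235-13420309), NDC1 (ENST00000371429, chr1:53765460-53838860) and TPR (ENST00000367478, chr1:186311652-186375325) lie on minus strands. Capitals mark the start codon.
POM121 upstream start: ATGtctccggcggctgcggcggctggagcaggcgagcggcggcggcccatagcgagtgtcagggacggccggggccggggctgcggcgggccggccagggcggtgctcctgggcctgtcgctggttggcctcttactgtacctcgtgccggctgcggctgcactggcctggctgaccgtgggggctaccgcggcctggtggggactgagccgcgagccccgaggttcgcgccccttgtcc
POM121C upstream start: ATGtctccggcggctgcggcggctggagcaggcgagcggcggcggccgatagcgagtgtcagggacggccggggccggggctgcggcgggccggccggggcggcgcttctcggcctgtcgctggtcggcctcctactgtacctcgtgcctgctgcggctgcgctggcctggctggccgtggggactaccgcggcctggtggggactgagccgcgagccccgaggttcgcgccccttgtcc
POM121 downstream start: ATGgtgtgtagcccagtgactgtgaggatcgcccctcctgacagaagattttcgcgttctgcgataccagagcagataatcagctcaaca
POM121C downstream start: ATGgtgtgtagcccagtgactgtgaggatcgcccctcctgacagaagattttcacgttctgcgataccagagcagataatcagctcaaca
NUP210: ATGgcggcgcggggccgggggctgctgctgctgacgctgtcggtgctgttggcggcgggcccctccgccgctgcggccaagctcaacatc
NDC1: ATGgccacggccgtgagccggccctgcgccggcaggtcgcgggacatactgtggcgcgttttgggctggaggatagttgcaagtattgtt
TPR: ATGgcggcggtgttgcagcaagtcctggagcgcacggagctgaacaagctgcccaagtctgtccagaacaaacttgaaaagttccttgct
Over the printed stretches the POM121 and POM121C copies have the same base at 229 of 240 positions from the upstream start and at 89 of 90 from the downstream start, so the authors' counting could split reads between the copies, and values of POM121 isoforms are uncertain to that extent. GC content of the 240 printed bases of the upstream start is 75.8%, against 51.1% for the 90 bases of the downstream start. These stretches differ in length and place, and over the whole coding sequences GC content is 61.8% and 59.9%.

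Library totals ran from 4990408 to 21298678 counts, and each library correlated with the others of its group at r = 0.938 to 0.993. The labels of fraction and cell type were compared with marker RNAs, of which some followed the labels and others went against them. The summed level of 5 cytoplasmic mRNAs (ACTB, GAPDH, EEF1A1, RPLP0 and TUBA1B), in CPM (counts scaled to the library total), was 38520 to 40316 in cytoplasm against 14486 to 19267 in nucleus of hPSC, 36810 to 41210 against 11170 to 12354 in endoderm and 43299 to 44774 against 11414 to 14087 in mesoderm, but overlapped in ectoderm (38648 to 40457 against 36989 to 48115). The summed nuclear RNAs MALAT1, NEAT1, KCNQ1OT1 and SNHG14, as far as listed, were higher in nucleus than in cytoplasm in mesoderm (1269 to 1843 against 616 to 762 CPM), overlapped in hPSC (849 to 1096 against 885 to 902 CPM), where SNHG14 was higher in nucleus, and were lower in nucleus in ectoderm and endoderm (92.7 to 441 against 1337 to 2469 CPM, and 122 to 495 against 513 to 712 CPM). MALAT1 was at 34.2 to 304 CPM in the ectoderm libraries labelled nucleus, below the 1112 to 2179 CPM of ectoderm cytoplasm. In hPSC it was at 74.1 to 95.7 CPM in nucleus and 208 to 252 CPM in cytoplasm, in endoderm at 29 to 275 and 93.4 to 170 CPM, and in mesoderm at 227 to 445 and 156 to 187 CPM. Mitochondrial transcripts took 13.1% to 15.3%, 8.15% to 10.2% and 8.09% to 16.1% of counts in the nucleus libraries of hPSC, ectoderm and endoderm, at most 1.58% in their cytoplasm, and, the other way round, 1.11% to 1.36% in the nucleus and 5.84% to 7.46% in the cytoplasm of mesoderm. The libraries also differed in GC content: the median log2 deviation of GC-rich genes minus that of GC-poor genes (upper and lower quartile) was 0.66 to 1.41 in ectoderm nucleus and 0.92 to 2.08 in endoderm nucleus, against -0.61 to -0.20 and -0.87 to -0.40 in their cytoplasm. In hPSC chromatin, replicate 3 stood apart at 0.81, against -0.17 and -0.11. Replicate 3 of mesoderm chromatin was at -0.45, against 0.14 and 0.16, with 5.53% mitochondrial counts against 1.12% and 0.77%. Of the marker genes of each cell type, 5 of 7 for hPSC, 5 of 7 for ectoderm, 7 of 7 for endoderm and 2 of 8 for mesoderm had their highest cytoplasmic level in the labelled type. A marker with no row for a cell type was set to 0 CPM there, so these counts also reflect which genes each assembly lists. In mesoderm cytoplasm MESP1, MIXL1, KDR and GATA4 stood at 0 CPM, which need not be a measured level, and HAND1 and BMP4 were at 132 and 212 CPM. Below, "nucleus" therefore means the libraries labelled nucleus, and the part of these differences in the results was not tested.

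On the TPM scale, which divides by transcript length and so allows genes to be compared, the nucleoporins were expressed in all 16 groups. SEC13, which serves both the Y complex and the coat of vesicles leaving the ER, had the highest level of all nucleoporins in each cytoplasm, at 123 ± 7.26 TPM (SD, n = 3) in hPSC and 186 ± 24.7 TPM (SD, n = 3) in ectoderm. In the cytoplasm the median nucleoporin level was 20.4, 16.9, 25.5 and 18.8 TPM in hPSC, ectoderm, endoderm and mesoderm. NUP210 was the highest nucleoporin in the nucleus of hPSC, endoderm and mesoderm, at 118 ± 12.4 TPM (SD, n = 3), 102 ± 35.9 TPM (SD, n = 3) and 147 ± 21.1 TPM (SD, n = 3). The same gene was at 8.02 ± 1.67 TPM (SD, n = 3), 5.04 ± 0.943 TPM (SD, n = 3) and 7.25 ± 1.66 TPM (SD, n = 3) in the cytoplasm, and in endoderm cytoplasm it was the lowest of all nucleoporins. Low positions were taken elsewhere by AHCTF1, GLE1, NUP35, NUP58 and TPR, the last at 2.24 TPM in ectoderm nucleus. Summed over all members, the share of a library ran from 1859 CPM in ectoderm nucleus to 3757 CPM in hPSC nucleoplasm. CPM is a share of a library, so RNA amounts per cell were not measured, and fewer cells of a type and less RNA per cell cannot be told apart.

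The first comparison asked which nucleoporin mRNAs were relatively more abundant in the cytoplasm or the nucleus. Tests were made with edgeR's quasi-likelihood test over all genes of a cell type, with Benjamini-Hochberg adjustment, and a gene is called at an adjusted p under 0.05. Nucleoporin mRNAs split in both directions: in hPSC 14 were higher in the cytoplasm, 9 were lower and 8 were not called, in ectoderm 10, 11 and 10, in endoderm 14, 9 and 7, and in mesoderm 7, 16 and 8. Of all genes tested, 65.4%, 53.7%, 69.8% and 63.3% were called in hPSC, ectoderm, endoderm and mesoderm (35.0%, 27.2%, 34.4% and 31.8% higher, 30.4%, 26.5%, 35.5% and 31.5% lower), so being called is common in these data. The members' shares were somewhat above that background, at 74.2%, 67.7%, 76.7% and 74.2%. In mesoderm the members leaned to lower, with 16 against 7, while all genes were balanced. The median log2 change of the members was 0.26, -0.16, 0.17 and -0.44, against 0.10, 0.01, 0.01 and -0.00 for all genes tested. The split depends on the scaling: scaled to total counts it was 14 higher and 9 lower, 13 and 2, 20 and 2, and 6 and 17, and on log2(TPM + 1) with limma it was 4 and 10, 10 and 1, 15 and 4, and 0 and 27. These scalings moved the median of all genes to 0.17, 0.35, 0.71 and -0.11 with total counts and to -0.19, 0.17, 0.28 and -0.82 with TPM. With a GC correction chosen after seeing the data, the split was 9 and 10, 5 and 16, 7 and 15, and 7 and 16.

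Of the 30 genes tested in all 4 cell types, 6 were called lower in the cytoplasm in every one, namely NUP210, NDC1, NUP98, NUP188, NUP205 and NUP214, and 3 were called higher in every one, namely NUP35, NUP54 and NUP58. Another 7 were called in opposite directions in different cell types (NUP107, NUP133, NUP62, RANBP2, NUP42, RAE1 and AAAS). Under total counts only NUP210 was called lower in all 4 types, and NUP35, NUP54, NUP58 and SEC13 were called higher. With TPM NUP210 was the only one called lower in all 4 and none was called higher. NUP188, NDC1, NUP210, POM121 and NUP214 had a log2 change below 0 in all 4 cell types in every scaling and tool tried. The share of all genes with such patterns over the 4 cell types is not given here. These counts therefore do not show whether the patterns are more common among the members than among other genes.

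**Figure D1:**
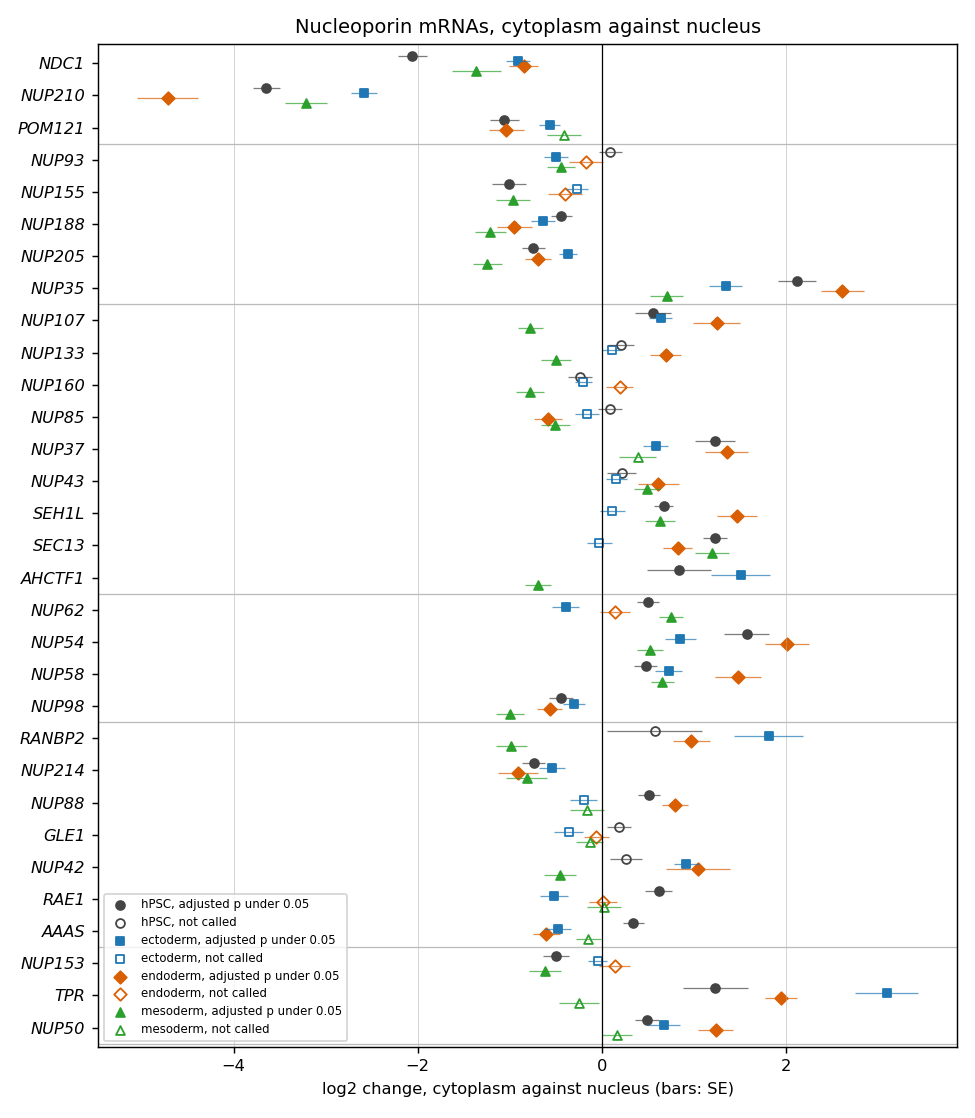
Log2 change of cytoplasm against nucleus (x axis) for each nucleoporin (y axis, grouped by place in the pore) in 4 cell types; points are edgeR estimates, bars are SE, and filled points are called at an adjusted p under 0.05. NUP210 lies farthest to the left in each cell type, from -4.72 in endoderm to -2.58 in ectoderm, and NUP35 lies to the right of 0 in all.

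The membrane nucleoporins were lower in the cytoplasm than in the nucleus in 11 of 12 tests, 3 genes in 4 cell types, and the remaining one, POM121 in mesoderm, was not called. The grouping is by gene and does not separate the transcripts of POM121. In endoderm the only POM121 transcript listed was that with the downstream start, whose coding sequence lacks the first 265 codons. Whether that shorter form keeps the membrane span was not examined. NUP210, a glycoprotein with 1 membrane span, was at 43.6, 41.9 and 51.7 CPM in the cytoplasm and 508, 579 and 544 CPM in the nucleus of hPSC. In ectoderm its libraries held 57.6, 49.9 and 53.6 CPM in the cytoplasm and 251, 241 and 268 CPM in the nucleus. Every nucleus library was above every cytoplasm library in both cell types. In endoderm the levels were 27.8, 32.2 and 40.6 CPM in the cytoplasm and 693, 361 and 469.5 CPM in the nucleus, and in mesoderm 56.5, 38.5 and 41.4 CPM in the cytoplasm and 482, 395 and 473 CPM in the nucleus. The groups did not overlap there either, with endoderm nucleus the most spread. The log2 change of cytoplasm against nucleus was -3.64 ± 0.15 (SE, adjusted p = 2.8e-10) in hPSC, -2.58 ± 0.14 (SE, adjusted p = 1.6e-08) in ectoderm, -4.72 ± 0.33 (SE, adjusted p = 1.3e-08) in endoderm and -3.21 ± 0.23 (SE, adjusted p = 1.2e-06) in mesoderm.

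NDC1, a protein with several membrane spans that is needed for pore assembly, was at 41.7, 48.9 and 50.6 CPM in the cytoplasm and 167, 194 and 199 CPM in the nucleus of hPSC, and at 47.1, 40.5 and 38.8 CPM in the cytoplasm and 116, 121 and 112 CPM in the nucleus of mesoderm. In these cell types all nucleus libraries were above all cytoplasm libraries. In ectoderm it was at 41.8, 28.7 and 35.5 CPM in the cytoplasm and 61.6, 40.3 and 56.9 CPM in the nucleus, and in endoderm at 63.5, 64.6 and 51.3 CPM in the cytoplasm and 41.2, 78.3 and 84.6 CPM in the nucleus. Here the groups overlapped in CPM, although the test called the gene. The log2 changes were -2.06 ± 0.16 (SE), -0.92 ± 0.13 (SE), -0.85 ± 0.16 (SE) and -1.37 ± 0.27 (SE) in hPSC, ectoderm, endoderm and mesoderm, all called. The endoderm call was lost with total counts (-0.19) and with TPM (-0.51), and the ectoderm call with TPM (-0.55).

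POM121, which faces the nuclear side of the pore membrane, was at 48.0, 66.6 and 85.4 CPM in the cytoplasm and 129, 128 and 139 CPM in the nucleus of hPSC. Its ectoderm libraries held 109, 111 and 104 CPM in the cytoplasm and 131, 119 and 128 CPM in the nucleus, and its endoderm libraries 114, 113 and 115 CPM in the cytoplasm and 157, 115 and 144 CPM in the nucleus. The groups were apart in these 3 cell types, with the cytoplasm lower, but in endoderm only narrowly, at 115 CPM on both sides after rounding. In mesoderm the libraries held 105, 84.7 and 90.5 CPM in the cytoplasm and 131, 109 and 159 CPM in the nucleus, also apart. The log2 changes were -1.06 ± 0.16 (SE), -0.57 ± 0.11 (SE) and -1.04 ± 0.19 (SE), all called, and -0.41 ± 0.19 (SE, adjusted p = 0.074) in mesoderm, which was not called. In endoderm the CPM lie closer together than -1.04 implies, since the log2 changes rest on a further scaling between libraries. The endoderm value and that of the single endoderm isoform given below use the same counts, and the isoform call was lost with total counts. The mesoderm value was called with total counts (-0.51), DESeq2 (-0.44) and TPM (-1.5) and without nucleus replicate 2 (-0.54), and the ectoderm call was lost with total counts (-0.22), TPM (-0.24) and the GC correction (-0.18).

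**Figure D2:**
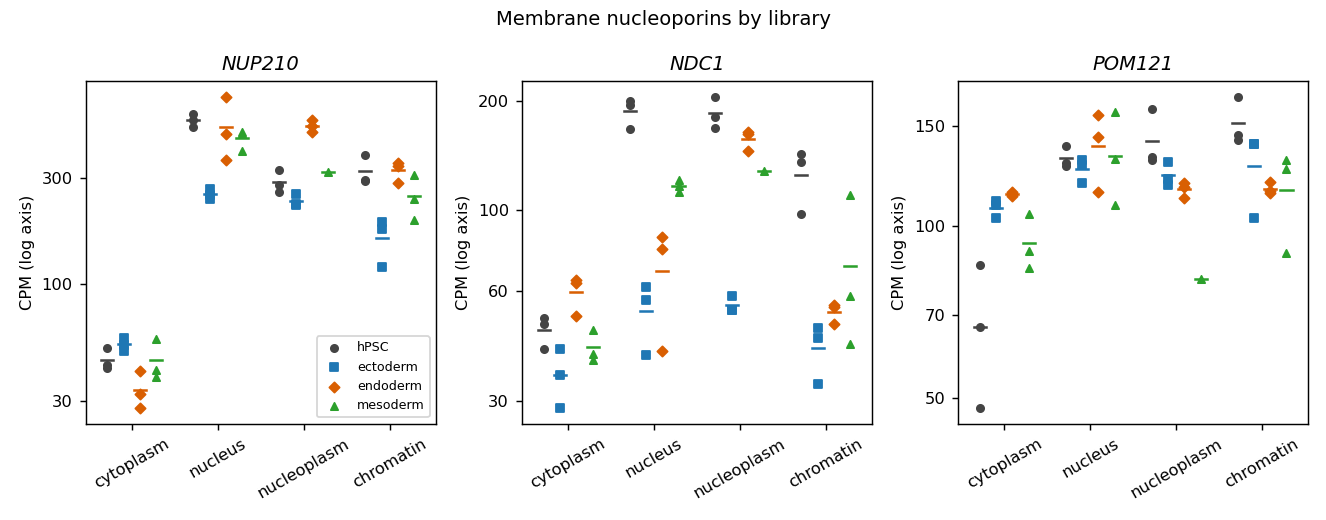
Level of NUP210, NDC1 and POM121 (CPM, log axis) in each library of the 4 cell types, by fraction; each point is 1 library and short lines are group means. The cytoplasm points of NUP210 lie below all points of the other fractions of the same cell type, while those of POM121 are separated by less.

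The mean log2(CPM + 1) of the membrane nucleoporins minus that of the soluble ones was taken in each library as a description. In hPSC it was -0.63, -0.62 and -0.43 in the cytoplasm and 1.90, 2.05 and 2.10 in the nucleus. In ectoderm it was -0.10, -0.12 and -0.06 against 1.42, 1.60 and 1.53, in endoderm -0.49, -0.47 and -0.37 against 2.68, 1.79 and 2.08, and in mesoderm -0.06, -0.23 and -0.17 against 1.34, 1.07 and 1.39. The fractions did not overlap in any cell type. NUP210 had the largest change of the membrane genes in each cell type, and a mean without it is not given. In mesoderm the log2 changes of NUP210, NDC1 and POM121 were -3.21, -1.37 and -0.41, against -1.25 for the soluble NUP205. The means of nucleoplasm and chromatin lay between those of cytoplasm and nucleus, at 1.18 and 1.26 in hPSC, 0.92 and 0.66 in ectoderm, 1.97 and 1.08 in endoderm, and 1.02 (1 library) and 0.73 in mesoderm.

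The inner ring holds NUP35, NUP93, NUP155, NUP188 and NUP205, scaffold proteins around the channel. NUP35 was the only one called higher in the cytoplasm, and was so in every cell type, while 3, 3, 2 and 4 of the others were called lower in hPSC, ectoderm, endoderm and mesoderm. NUP35, which binds the pore membrane, was at 51.6, 47.4 and 43.5 CPM in the cytoplasm and 9.53, 12 and 9.77 CPM in the nucleus of hPSC, and at 25.3, 31.7 and 27.3 CPM in the cytoplasm and 1.68, 3.27 and 3.68 CPM in the nucleus of endoderm. The cytoplasm was higher in each library of these cell types. Its log2 changes were 2.12 ± 0.21 (SE), 1.35 ± 0.18 (SE), 2.61 ± 0.23 (SE) and 0.70 ± 0.18 (SE) in hPSC, ectoderm, endoderm and mesoderm, although in mesoderm the direction turned with TPM (-0.37). NUP188 was called lower in the cytoplasm of all 4, at -0.44, -0.64, -0.95 and -1.21, and NUP205, at -0.74, -0.37, -0.69 and -1.25. NUP155 was called in hPSC (-1.01) and mesoderm (-0.96).

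The outer ring is the Y complex of NUP107, NUP133, NUP160, NUP37, NUP43, NUP85, SEH1L and SEC13, with AHCTF1, which brings the complex to chromatin. In hPSC, ectoderm and endoderm 5, 3 and 6 of them were higher in the cytoplasm and 0, 0 and 1 lower, and in mesoderm 3 were higher and 5 lower. NUP107 was at 87.2, 103 and 103 CPM in the cytoplasm and 59.9, 67.9 and 62.2 CPM in the nucleus of hPSC. In mesoderm the same gene was at 69.0, 57.6 and 57.5 CPM in the cytoplasm and 109, 122 and 108 CPM in the nucleus. The cytoplasm libraries were all higher in the former and all lower in the latter, with log2 changes of 0.56 ± 0.19 (SE) and -0.78 ± 0.14 (SE). SEC13 was called higher in hPSC (1.23), endoderm (0.82) and mesoderm (1.20), with -0.03 in ectoderm. SEH1L was called higher in the same 3, by 0.67, 1.46 and 0.63. AHCTF1 was higher in the cytoplasm of hPSC (0.84) and ectoderm (1.51) and lower in mesoderm (-0.69).

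In the central channel, NUP62, NUP54 and NUP58 form a complex of proteins with phenylalanine-glycine repeats, and NUP98 carries such repeats too. NUP54 was at 103, 97.0 and 98.4 CPM in the cytoplasm and 36.0, 28.3 and 31.6 CPM in the nucleus of hPSC, with every cytoplasm library higher. Its log2 changes were 1.57, 0.85, 2.01 and 0.52, and those of NUP58 were 0.47, 0.73, 1.48 and 0.65, all called. NUP98 was called the other way in all 4, at -0.44, -0.30, -0.57 and -1.0. NUP62 was higher in the cytoplasm of hPSC (0.51) and mesoderm (0.75, or -0.34 with TPM) and lower in ectoderm (-0.39).

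On the cytoplasmic face, NUP214 and NUP88 form a complex that acts in export, RANBP2 is the large filament protein that binds Ran, GLE1 and NUP42 act in the last step of mRNA export, RAE1 is an mRNA export factor and AAAS is anchored through NDC1. The counts higher and lower were 3 and 1 in hPSC, 2 and 3 in ectoderm, 3 and 2 in endoderm and 0 and 3 in mesoderm. RANBP2 was at 147, 116 and 125 CPM in the cytoplasm and 53.8, 9.16 and 30.7 CPM in the nucleus of ectoderm. In mesoderm it was at 96.3, 91.1 and 80.4 CPM in the cytoplasm and 188, 172 and 208 CPM in the nucleus. The cytoplasm libraries were higher in ectoderm and lower in mesoderm without overlap, by 1.81 ± 0.38 (SE) and -0.98 ± 0.16 (SE). In endoderm the log2 change was 0.97, called, and in hPSC 0.57, not called. The RGPD genes are near-identical copies of much of RANBP2, so its counts are uncertain where reads could be split. NUP214 was called lower in the cytoplasm of all 4 cell types, at -0.74, -0.54, -0.91 and -0.82. GLE1 was not called in any, with values from -0.36 to 0.19.

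The nuclear basket holds TPR, NUP153 and NUP50. TPR was at 87.5, 112 and 118 CPM in the cytoplasm and 47.7, 47.7 and 33.6 CPM in the nucleus of hPSC. Its ectoderm libraries held 197, 168 and 169 CPM in the cytoplasm and 26.2, 8.40 and 17.6 CPM in the nucleus, and its endoderm libraries 119, 112 and 114 CPM in the cytoplasm and 11.1, 25.9 and 19.9 CPM in the nucleus. The cytoplasm was higher in every library of these 3 cell types. In mesoderm TPR was at 137, 129 and 120.2 CPM in the cytoplasm and 161, 159 and 173 CPM in the nucleus, with the nucleus higher in every library. The log2 changes were 1.23 ± 0.36 (SE), 3.09 ± 0.34 (SE) and 1.94 ± 0.17 (SE), all called, and -0.25 ± 0.22 (SE, adjusted p = 0.34) in mesoderm, not called. With TPM the hPSC call was lost (0.76). NUP50, which releases import cargo, was called higher in the cytoplasm of hPSC (0.49), ectoderm (0.67) and endoderm (1.23), and NUP153, which ties the basket to the pore, was called lower in hPSC (-0.50) and mesoderm (-0.62).

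**Figure D3:**
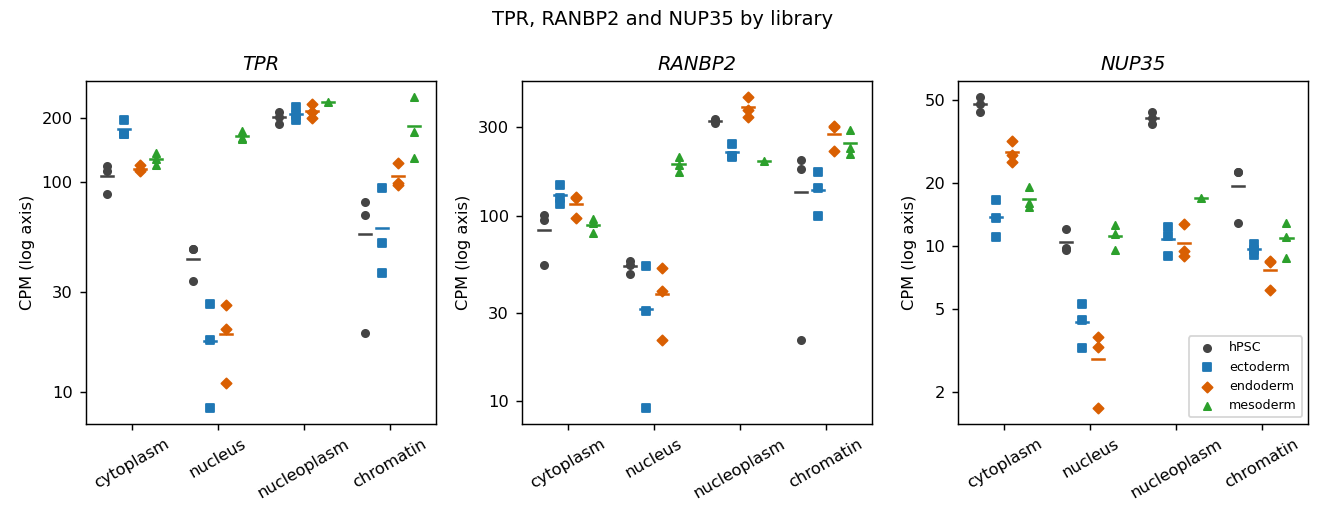
Level of TPR, RANBP2 and NUP35 (CPM, log axis) in each library by cell type and fraction; each point is 1 library and short lines are group means. The nucleus points of TPR lie below the cytoplasm points in hPSC, ectoderm and endoderm and above them in mesoderm.

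GC content differed among the members and moved with these differences. Spearman's rho between a gene's transcript GC content and its log2 change of cytoplasm against nucleus was -0.48, -0.74, -0.73 and -0.16 for hPSC, ectoderm, endoderm and mesoderm, over 31, 31, 30 and 31 members, which share the same libraries. Over all genes tested it was -0.23, -0.63, -0.58 and -0.09. With the GC correction, NUP210 was still called lower in the cytoplasm of all 4 cell types, and NUP35 was the only gene called higher in all 4. Transcript length was related to the change with rho = -0.58 over the mesoderm members and -0.27 over all mesoderm genes.

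Other genes of nuclear transport and of membranes were counted in the same fits. Of 14 genes for other nuclear membrane proteins, such as SUN2 and TMEM43, 1, 2, 2 and 1 were higher in the cytoplasm of hPSC, ectoderm, endoderm and mesoderm and 11, 8, 10 and 11 were lower, with medians of -1.83, -0.81, -1.68 and -1.76. Of 22 genes for the ER translocon and ER membrane, 2, 3, 5 and 4 were higher and 17, 13, 13 and 9 were lower, with medians of -1.38, -0.58, -1.04 and -0.41. The soluble proteins of the proteasome core gave 14, 4, 14 and 14 higher and 0, 2, 0 and 0 lower of 14. Transport receptors and Ran, which carry cargo through the pore, gave 12, 8, 20 and 7 higher and 1, 8, 6 and 4 lower of 30. Factors of mRNA export gave 14, 7, 7 and 8 higher and 2, 6, 4 and 5 lower of 18, and the lamins, which lie under the nuclear envelope, gave 3, 0, 1 and 0 higher and 0, 2, 1 and 1 lower of 3. The part of ER-bound mRNA in the values of the membrane nucleoporins was not tested.

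The comparison was repeated for single isoforms. Of 60, 64, 66 and 66 nucleoporin isoforms tested in hPSC, ectoderm, endoderm and mesoderm, 28, 19, 26 and 24 were called, of which 13, 12, 17 and 10 were higher in the cytoplasm. Of all transcripts tested, 39.7%, 13.7%, 42.1% and 32.0% were called (19.6%, 7.03%, 19.3% and 15.3% higher, 20.0%, 6.62%, 22.9% and 16.8% lower). The POM121 transcript with the upstream start was at 9.12, 8.49 and 17.1 CPM in the cytoplasm and 77.5, 89.4 and 93.5 CPM in the nucleus of hPSC. In ectoderm it was at 22.6, 21.4 and 18.7 CPM against 61.0, 34.7 and 33.2 CPM, and in mesoderm at 15.0, 12.6 and 5.55 CPM against 86.1, 49.2 and 97.2 CPM. The nucleus was higher in every library of these cell types, and the endoderm table does not list this transcript. Its log2 changes of cytoplasm against nucleus were -2.94 ± 0.26 (SE), -1.36 ± 0.22 (SE) and -2.48 ± 0.37 (SE) in hPSC, ectoderm and mesoderm, all called.

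The transcript with the downstream start, whose coding sequence lacks the first 265 codons, was at 38.3, 57.9 and 68.2 CPM in the cytoplasm and 51.2, 37.9 and 44.9 CPM in the nucleus of hPSC. Its log2 changes were 0.27 ± 0.19 (SE) in hPSC (adjusted p = 0.3), -0.31 ± 0.17 (SE) in ectoderm (adjusted p = 0.27) and 1.09 ± 0.36 (SE) in mesoderm (adjusted p = 0.0501), none called, and -0.81 ± 0.19 (SE) in endoderm, which was called, also without endoderm nucleus replicate 1 (-0.52), but not with total counts. The annotated transcripts also differ in their bases outside the coding sequence, so the shares that follow do not isolate the start codon. The upstream-start transcript made up 17.3% ± 3.95 (SD, n = 3) of POM121 counts in the cytoplasm and 65.8% ± 5.23 in the nucleus of hPSC. In ectoderm the shares were 19.4% ± 1.33 and 33.9% ± 11.1, and in mesoderm 11.8% ± 4.89 and 57.3% ± 10.9. The fractions did not overlap in any of the 3 cell types, and a two-sided exact permutation test gave p = 0.1 in each (adjusted p = 0.1 over 3 tests), the smallest that 3 against 3 libraries allow. This transcript was named for a large fall without overlap in the same libraries, so the test gives no independent support.

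The corresponding pair of the copy POM121C was measured too, although it is not independent of POM121 where reads are shared. The upstream-start transcript of POM121C had log2 changes of -1.95 ± 0.22 (SE), -1.89 ± 0.42 (SE), -2.96 ± 0.51 (SE) and -1.33 ± 0.30 (SE) in hPSC, ectoderm, endoderm and mesoderm, all called. For its downstream-start transcript they were 0.22 ± 0.34 (SE), -0.38 ± 0.35 (SE), 2.44 ± 1.85 (SE) and 0.31 ± 0.27 (SE), none called. The difference between the isoforms of a pair was not tested in these fits.

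**Figure D4:**
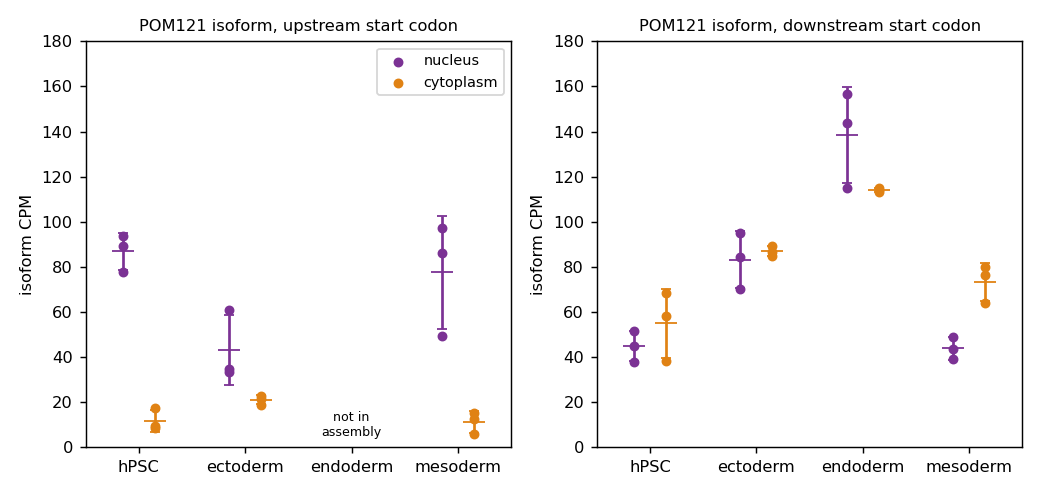
Level (CPM) of the POM121 transcripts with the upstream and the downstream start codon in nucleus and cytoplasm libraries, by cell type; points are libraries, with mean ± SD (n = 3). The upstream-start transcript is lower in the cytoplasm of hPSC, ectoderm and mesoderm and is not in the endoderm table. The annotated transcripts also differ in their bases outside the coding sequence.

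Among the other genes, the isoform of NUP210 shown above by its start, ENST00000254508, was lower in the cytoplasm of all 4 cell types, at -4.94, -2.74, -4.48 and -2.98. ENST00000295119 of NUP35 was higher in all 4, by 2.28, 1.32, 2.85 and 1.05. TPR's ENST00000367478 changed by 1.28 and 3.08 in hPSC and ectoderm, both called, and was at -0.02 in mesoderm. NUP42 and SEH1L in hPSC, NUP43 in endoderm, and AAAS, NUP42, NUP43 and NUP62 in mesoderm had isoforms called in opposite directions. For NUP42 in hPSC, the coding isoform ENST00000258742 was higher in the cytoplasm (1.30 ± 0.20 (SE)) and the retained-intron transcripts ENST00000497500 (-1.20 ± 0.28 (SE)) and ENST00000477844 (-3.02 ± 0.59 (SE)) were lower. Isoforms of NUP54 in hPSC (1.61), RANBP2 in ectoderm (1.85), TPR in endoderm (2.79), and SEC13 (1.41) and NUP58 (1.13) in mesoderm were also among those most raised in the cytoplasm, of which the NUP58 isoform turned to -0.23 with TPM. In all, 3 of 4 nucleoporin transcripts annotated as retained introns were lower in hPSC cytoplasm and none of 4 was called in ectoderm.

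Within the nucleus, chromatin was compared with nucleoplasm in hPSC, ectoderm and endoderm; mesoderm has 1 nucleoplasm library and was not tested. Most nucleoporins that were called were lower in chromatin: 1 higher and 11 lower of 31 in hPSC, 2 and 17 of 31 in ectoderm and 3 and 16 of 30 in endoderm, where 30.5%, 44.1% and 53.5% of all genes were called (17.1%, 18.5% and 22.9% higher, 13.3%, 25.6% and 30.6% lower). That split is not stable to the scaling. It was 3 and 3, 4 and 2, and 5 and 6 with total counts, and 12 and 3, 14 and 1, and 6 and 5 with TPM, while the median of all genes moved to 0.23, 0.19 and 0.46 with total counts and to 0.47, 0.48 and 0.40 with TPM. The ectoderm count of 19 fell to 7 without nucleoplasm replicate 2 and to 8, 9 and 10 without chromatin replicates 1, 2 and 3, and the hPSC count of 12 fell to 5 without nucleoplasm replicate 1 or 3. GC content moved with this comparison in hPSC: the difference between GC-rich and GC-poor genes was -0.70 to -0.59 in nucleoplasm and -0.17 to 0.81 in chromatin, and Spearman's rho between GC content and the log2 change was 0.69 over the 31 members and 0.55 over all genes tested.

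TPR was at 80.3, 69.1 and 19.2 CPM in chromatin and 214, 203 and 188 CPM in nucleoplasm of hPSC, and at 99.0, 122 and 96.4 CPM in chromatin and 235, 213 and 199.5 CPM in nucleoplasm of endoderm. Every chromatin library was lower. Its log2 changes were -2.07 ± 0.36 (SE), -2.07 ± 0.32 (SE) and -1.61 ± 0.17 (SE) in hPSC, ectoderm and endoderm, all called. RANBP2 was lower, at -1.5, -0.95 and -1.05, but the hPSC call was lost without any 1 nucleoplasm library and the ectoderm call when any of 5 libraries of 6 was dropped. In hPSC chromatin replicate 3, the library that stood apart in GC content, RANBP2 was at 21.3 CPM against 200 and 179 in the others, and without it the change was -1.0.

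Of the membrane nucleoporins, NDC1 was called lower in chromatin in all 3 cell types, at -0.79, -0.69 and -2.16. Its endoderm libraries held 48.8, 55.1 and 54.4 CPM in chromatin and 164, 146 and 162 CPM in nucleoplasm, with no overlap. NUP210 changed, at -0.84 in ectoderm and -1.23 in endoderm and was not called in hPSC (-0.08). With TPM the ectoderm values of NDC1 and NUP210 turned to 0.06 and 0.18. POM121 was called in endoderm only (-0.58), a call that was lost without chromatin replicate 3 and turned to 0.07 with TPM. Among soluble members, NUP35 was lower, at -1.31, -0.47 and -1.02, while NUP85 of the Y complex was higher in chromatin of hPSC (0.58) and endoderm (1.30) and SEH1L in ectoderm (0.77). NUP42 was higher in ectoderm chromatin as well (0.34), a call that was lost without chromatin replicate 1 or any 1 nucleoplasm library (adjusted p up to 0.10). In endoderm AAAS (0.49) and GLE1 (0.40) of the cytoplasmic face were higher and NUP37 of the Y complex was lower (-1.5). The AAAS call was lost without nucleoplasm replicate 1 or 3 (adjusted p up to 0.053), and the GLE1 call without nucleoplasm replicate 1 or 2 or chromatin replicate 2 (up to 0.11). The share of POM121 counts in its upstream-start transcript was 49.6% and 51.4% in nucleoplasm and chromatin of hPSC and 33.2% and 36.8% in those of ectoderm.

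The germ layers were next compared with hPSC in the cytoplasm, over the 30 nucleoporins present in all 4 tables. The 3 comparisons share the hPSC libraries, and the tables rest on transcripts assembled separately per cell type, so a gene's transcripts can differ between them. In ectoderm 5 were higher than in hPSC and 14 lower, in endoderm 2 and 6 and in mesoderm 3 and 13, where 76.0%, 58.1% and 68.1% of all genes were called (38.0%, 29.5% and 34.6% higher, 37.9%, 28.6% and 33.4% lower). With TPM the splits were 6 and 8, 6 and 2, and 3 and 6. The endoderm count of 8 is a smaller share than the background.

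NUP35 was at 51.6, 47.4 and 43.5 CPM in hPSC cytoplasm and at 16.5, 11 and 13.5 CPM in that of ectoderm. In endoderm it was at 25.3, 31.7 and 27.3 CPM and in mesoderm at 19.1, 15.3 and 16 CPM. All libraries of the germ layers were below those of hPSC. The log2 changes were -1.89 ± 0.14 (SE), -0.93 ± 0.13 (SE) and -1.55 ± 0.13 (SE), all called. NUP54 was lower as well, at -1.31, -0.54 and -1.03, all called. NUP85 was lower in ectoderm (-1.32) and mesoderm (-0.83) and at -0.27 in endoderm, not called, and NUP188 was likewise lower in ectoderm (-1.17) and mesoderm (-0.84) and at 0.04 in endoderm.

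POM121 was at 48.0, 66.6 and 85.4 CPM in hPSC cytoplasm, 109, 111 and 104 CPM in ectoderm and 114, 113 and 115 CPM in endoderm, so both lay above hPSC. Its log2 changes were 0.61, 0.60 and 0.42, all called, but in mesoderm the libraries overlapped those of hPSC and the call was lost without hPSC cytoplasm replicate 1 or 2 or mesoderm cytoplasm replicate 1 or 3. Without hPSC cytoplasm replicate 1 the values were 0.36 in endoderm, still called, and 0.21 in mesoderm. NUP58 was higher in ectoderm (0.70) and mesoderm (0.67). NUP210 was called in endoderm only (-0.62), with 0.15 in ectoderm and -0.07 in mesoderm, and NDC1 in ectoderm only (-0.51). TPR was higher in ectoderm (0.66). In endoderm the other called changes of size were NUP155 (-0.54, or 0.50 with TPM) and NUP214 (0.32), and in mesoderm NUP88 (-0.85) and NUP42 (0.49). Leaving out 1 library lost 3 of these calls. That of NUP155 was lost without hPSC cytoplasm replicate 2 or 3 or endoderm cytoplasm replicate 1 or 3, with values from -0.83 to -0.41 over all 6 fits, the first without hPSC cytoplasm replicate 1. That of NUP214 was lost without hPSC cytoplasm replicate 1 (0.19, adjusted p = 0.15) or 2 or endoderm cytoplasm replicate 3, and that of NUP42 without hPSC cytoplasm replicate 3 or mesoderm cytoplasm replicate 1 or 2 (adjusted p up to 0.060).

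**Figure D5:**
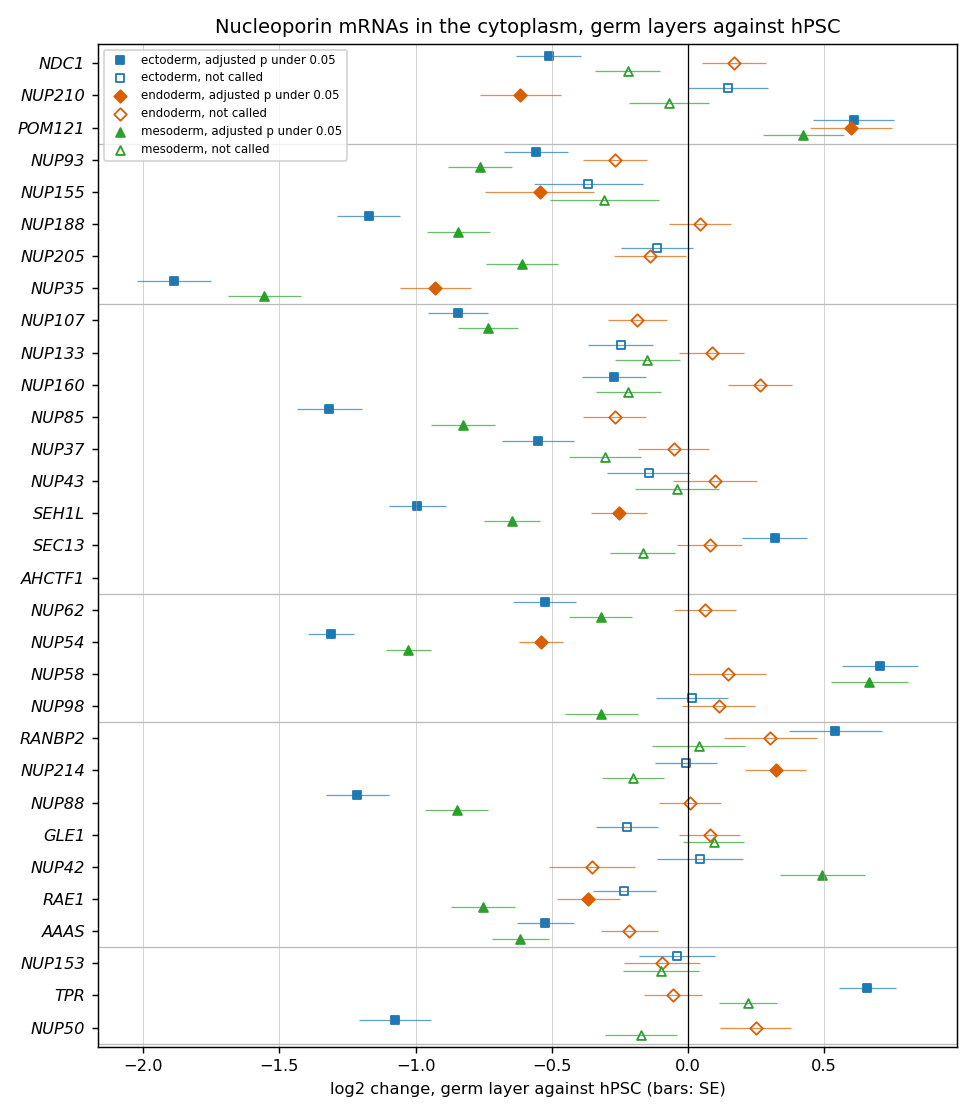
Log2 change of each germ layer against hPSC in the cytoplasm (x axis) for the nucleoporins (y axis; AHCTF1, missing from the endoderm table, was not tested); points are edgeR estimates, bars are SE, and filled points are called at an adjusted p under 0.05. NUP35 and NUP54 are below 0 in all 3 germ layers and POM121 is above 0 in all 3.

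In the chromatin fraction 3 nucleoporins were higher and 14 lower in ectoderm than in hPSC, 2 and 13 in endoderm and 4 and 8 in mesoderm, where 62.9%, 61.9% and 54.6% of all genes were called (30.5%, 28.9% and 27.1% higher, 32.4%, 33.0% and 27.5% lower). With TPM the splits were 2 and 11, 2 and 11, and 9 and 1, so the mesoderm direction depends on the scaling. Without hPSC chromatin replicate 2 the mesoderm count of 12 fell to 6, and without mesoderm chromatin replicate 2 to 7. NDC1 was at 143, 136 and 97.7 CPM in hPSC chromatin and 47.6, 33.5 and 44.6 CPM in that of ectoderm, with ectoderm lower in every library. It was called lower in all 3 germ layers, at -1.58, -1.07 and -0.74, the last with overlapping libraries and a call lost when any of 4 libraries of 6 was dropped, at -0.47 without mesoderm chromatin replicate 2 and -1.18 without replicate 3. NUP62 was lower in all 3, at -1.15, -0.70 and -0.91, and NUP35, at -1.0, -1.15 and -0.73. The Y complex members SEC13 in ectoderm (0.48) and NUP85 in endoderm (0.53) were higher, and NUP37 in endoderm (-1.11) and SEH1L in mesoderm (-0.79) were lower. The SEC13 call was lost without hPSC chromatin replicate 1 or 3 or ectoderm chromatin replicate 1 or 2, and the NUP85 call without hPSC chromatin replicate 1 or 2 or endoderm chromatin replicate 2 or 3 (adjusted p up to 0.072 and 0.075). On the cytoplasmic face NUP42 was higher in ectoderm (0.68) and mesoderm (1.24) and AAAS in endoderm (0.38), where the AAAS call was lost when any of 5 libraries of 6 was dropped (adjusted p up to 0.086) and held without hPSC chromatin replicate 3. NUP58 was higher in ectoderm (0.54, or -0.03 with the GC correction), and NUP54 in ectoderm (-1.09) and NUP155 in endoderm (-1.09) were lower. In mesoderm GLE1 was higher (0.48) and NUP54 lower (-0.76), with the GLE1 call lost in 1 and the NUP54 call in 4 of the 6 fits that left out a library. TPR was higher in mesoderm (1.85), NUP210 was called in ectoderm only (-0.99), and POM121 was not called in any.

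Whether the difference between cytoplasm and nucleus itself changed was tested as an interaction, the log2 change of cytoplasm against nucleus in a germ layer minus that in hPSC; the 3 comparisons share the hPSC libraries. In ectoderm it was called higher for 8 nucleoporins and lower for 5, in endoderm 6 and 4 and in mesoderm 2 and 11, where 51.9%, 38.0% and 25.6% of all genes were called (27.4%, 19.7% and 18.7% higher, 24.6%, 18.3% and 6.88% lower). Splits with total counts were 8 and 4, 16 and 0, and 0 and 17, those with TPM 11 and 0, 18 and 0, and 0 and 19, and those with the GC correction 7 and 9, 1 and 1, and 3 and 12. In endoderm the count of 10 fell to 5 without endoderm nucleus replicate 1, endoderm cytoplasm replicate 1 or endoderm cytoplasm replicate 2, fell to 6 without hPSC nucleus replicate 2 or hPSC cytoplasm replicate 1, and rose to 17 without endoderm nucleus replicate 2. In mesoderm the count of 13 fell to 8 without hPSC nucleus replicate 1, hPSC cytoplasm replicate 2, mesoderm nucleus replicate 2 or mesoderm cytoplasm replicate 2, and to 7 without mesoderm nucleus replicate 1.

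NDC1 had a smaller deficit in the cytoplasm of each germ layer than in that of hPSC, with interactions of 1.33 ± 0.21 (SE) in ectoderm, 1.27 ± 0.21 (SE) in endoderm and 0.76 ± 0.21 (SE) in mesoderm, all called, though the mesoderm value was -0.04 with TPM. NUP210 had a smaller deficit in ectoderm (1.25 ± 0.32 (SE)) and a larger one in endoderm (-0.98 ± 0.32 (SE)); the endoderm call was lost with total counts, TPM and the GC correction and when any of 4 libraries of 12 was dropped, and without endoderm nucleus replicate 1 the value was -0.49. POM121 was called in ectoderm (0.68) and mesoderm (0.70), calls that were lost in 6 and 10 of the 12 fits that left out a library, and the mesoderm value turned to -0.08 with TPM. TPR moved in opposite directions, by 2.03 ± 0.31 (SE) in ectoderm and -1.43 ± 0.30 (SE) in mesoderm, and RANBP2 by 1.4 ± 0.45 (SE) and -1.5 ± 0.45 (SE), all called. SEC13 (-1.06), RAE1 (-0.93) and NUP62 (-0.71) had a lower difference in ectoderm than in hPSC. In endoderm NUP58 (1.06) and SEH1L (0.85) had a higher difference and AAAS (-0.86) and NUP85 (-0.60) a lower one, where NUP58 and SEH1L turned to -0.12 and -0.20 with the GC correction and NUP85 to 0.02 with TPM, its call also being lost without endoderm cytoplasm replicate 1. In mesoderm the difference of NUP35 was called, at -1.35.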

How the data were processed

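RNA was measured in 46 libraries of 4 fractions of H1 cells and the germ layers derived from them, sequenced from NEBNext Ultra libraries per the labels' protocols. The authors deposited, for each cell type, a table of read counts and a table of TPM (values scaled by transcript length and library) for transcripts of their own assembly, each with a gene name. The counts are whole numbers and may be rounded estimates. The submitters' processing notes name STAR, RSEM and build hg38, without versions or settings. Transcripts were summed by Ensembl gene, or by the assembly's own gene where no Ensembl gene was listed. The column that matched no sample was not used. The library column of mesoderm nucleoplasm was mapped by its group.

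Counts were tested with edgeR 4.0.16 in R 4.3.3 (TMM scaling, filterByExpr with a minimum count of 10, glmQLFit and glmQLFTest) over all genes or transcripts of each comparison, with Benjamini-Hochberg adjustment and a threshold of 0.05. Germ layers were compared with hPSC over Ensembl genes present in all 4 tables. Fold changes are log2 of scaled counts, and CPM in the text are counts scaled to the library total. Alternatives were scaling to total counts, DESeq2 1.42.0, no filter, limma 3.58.1 on log2(TPM + 1), a replicate block, leaving out each library, and a GC offset (lowess, span 0.3) chosen after seeing the data. The scripts were tested on simulated data of cytoplasm and nucleus, in which few genes were changed, unlike in these data. Of simulated 2-fold changes, 67.1%, 27.9%, 29.5% and 94.2% were called in hPSC, ectoderm, endoderm and mesoderm. At 1.5-fold the shares were 11.3%, 4.6%, 1.6% and 50%, so a gene that is not called can still differ. Library totals of 4990408 to 21298678 counts set the precision, and intervals cover the spread between libraries only.

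Same-numbered libraries of different fractions did not deviate together: in 0 of 13 comparisons were all correlations of their deviations above 0.1, so the numbers were not treated as pairs. No 2 replicates held identical values among 45 replicate pairs. The nucleoporins, their places in the pore and the other gene lists were chosen with earlier results of these data known, so no list is independent evidence. In each comparison the membrane nucleoporins were named whatever their values, with the 3 largest called rises and the 3 largest called falls, and the rest by place in the pore; other members named in the text were chosen after their values were seen. Isoforms were named by the 2 largest called changes in each direction with at least 10 CPM in 1 group and no overlap of libraries. Other isoforms named in the text, such as those of NUP42, fall outside that rule and were chosen after their values were seen. Matching to Ensembl transcripts and coordinates used GENCODE 29 on GRCh38. Proteins were not analysed here.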

Additional observations from a re-analysis of the deposited data

Results flagged for a closer look

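The difference between cytoplasm and nucleus was itself tested between each germ layer and hPSC as an interaction in edgeR's quasi-likelihood fit, and the nucleoporins named by the rule that passed an adjusted p under 0.05 are listed here with the log2 size of that interaction. A positive value means that the log2 change of cytoplasm against nucleus was higher than in hPSC. The 3 tests share the hPSC libraries.

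In ectoderm the interaction was 2.03 for TPR, 1.4 for RANBP2, 1.33 for NDC1, 1.25 for NUP210 and 0.68 for POM121. It was -1.06 for SEC13, -0.93 for RAE1 and -0.71 for NUP62. In endoderm it was 1.27 for NDC1, 1.06 for NUP58 and 0.85 for SEH1L, and -0.98 for NUP210, -0.86 for AAAS and -0.60 for NUP85. In mesoderm it was 0.76 for NDC1 and 0.70 for POM121, and -1.5 for RANBP2, -1.43 for TPR and -1.35 for NUP35. NDC1 was the only gene called higher in all 3 germ layers, with the mesoderm value turning to -0.04 with TPM. Of 12 fits that each left out 1 library, 6 lost the POM121 call in ectoderm and 10 that in mesoderm. The endoderm call of NUP210 was lost in 4 of 12 and that of NUP85 in 1 of 12. NUP58 and SEH1L in endoderm changed sign with the GC offset, and NUP85 in endoderm and POM121 in mesoderm with TPM. TPR and RANBP2 were called in opposite directions in ectoderm and mesoderm, whose nucleus libraries also differed in MALAT1 (34.2 to 304 CPM in ectoderm and 227 to 445 CPM in mesoderm) and in GC content. The part of these library differences was not tested.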

How the results depend on the processing

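Counts of called nucleoporins depended on the setting as follows. With TPM the count for cytoplasm against nucleus was 14 in hPSC and 11 in ectoderm, that for chromatin against nucleoplasm in endoderm 11, that for mesoderm against hPSC in the cytoplasm 9, and that for isoforms in ectoderm 9. With total counts, chromatin against nucleoplasm called 6 nucleoporins in hPSC and 6 in ectoderm, and 11 for endoderm. The endoderm count for the changed difference between cytoplasm and nucleus was 16 with total counts, 18 with TPM and 2 with the GC offset, which was chosen after seeing the data. The mean of membrane minus soluble nucleoporins, cytoplasm minus nucleus, was -2.58, -1.61, -2.63 and -1.42 in hPSC, ectoderm, endoderm and mesoderm, -3.16, -2.0, -3.20 and -2.05 without POM121, and -2.46 and -1.45 in hPSC and ectoderm on TPM. The cause was not tested. A mean without NUP210, the membrane gene with the largest change, is not given.

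Called values that changed sign did so with TPM or the GC offset. Of values that were not called, others changed sign with total counts or without 1 library: the changed difference of POM121 in endoderm went from 0.10 to -0.079 without hPSC cytoplasm replicate 1 or endoderm nucleus replicate 2, and NUP210 in mesoderm against hPSC in the cytoplasm from -0.069 to 0.012 without hPSC cytoplasm replicate 3. With TPM, chromatin against nucleoplasm turned to 0.064 for NDC1 and 0.18 for NUP210 in ectoderm and 0.070 for POM121 in endoderm, cytoplasm against nucleus in mesoderm to -0.37 for NUP35, -0.34 for NUP62 and -0.23 for the NUP58 isoform, NUP155 in endoderm against hPSC to 0.50, and the changed difference to 0.021 for NUP85 in endoderm and to -0.038 for NDC1 and -0.081 for POM121 in mesoderm. With the GC offset, NUP58 in ectoderm chromatin turned to -0.026, and the changed difference in endoderm to -0.20 for SEH1L and -0.12 for NUP58. Of 133 results, 113 kept direction and side of the threshold with total counts, 130 with DESeq2, 132 with no filter, 91 with TPM and 130 with the replicate block, and 100 of 117 with the GC offset.

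Leaving out 1 library at a time kept 847 of 924 values, lost 75 calls and gained 2. Counts then ran from 21 to 23, 15 to 22, 22 to 24 and 19 to 22 for cytoplasm against nucleus in hPSC, ectoderm, endoderm and mesoderm, and 20 to 27, 9 to 24, 22 to 26 and 13 to 15 for isoforms. They ran from 5 to 11, 7 to 14 and 14 to 18 for chromatin against nucleoplasm in hPSC, ectoderm and endoderm. Against hPSC they ran from 18 to 24, 6 to 12 and 14 to 23 in the cytoplasm of ectoderm, endoderm and mesoderm, 15 to 17, 10 to 17 and 6 to 14 in chromatin, and 11 to 13, 5 to 17 and 7 to 14 for the changed difference. The isoform count in ectoderm was 9 without cytoplasm replicate 1 and 11 without cytoplasm replicate 3, and that in mesoderm was under the full count of 24 by over 1.5 times without any 1 library. The mean of membrane minus soluble nucleoporins ran from -2.64 to -2.54, -1.66 to -1.56, -2.82 to -2.38 and -1.52 to -1.36.

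With the replicate number as a block, which does not pair the samples, the counts were 23, 20, 23 and 22 for cytoplasm against nucleus, 12, 18 and 18 for chromatin against nucleoplasm, 18, 8 and 15 for the cytoplasm and 17, 16 and 11 for the chromatin of the germ layers, 13, 8 and 10 for the changed difference, and 27, 16, 23 and 19 for isoforms. Reads of 1 gene are shared among its isoforms and near-identical copies, which leaves fewer reads for each isoform value; the effect of depth was not tested.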
